A study of Homo sapiens with 3 samples.

Results

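Serine, glycine and one-carbon enzymes were examined in SKOV3 cells, a human ovarian cancer cell line, in which G9a was depleted with either of 2 shRNAs. The members are the 10 genes PHGDH, PSAT1, PSPH, SHMT1, SHMT2, MTHFD1, MTHFD1L, MTHFD2, GLDC and ALDH1L2, of 19775 genes that the array annotation links to a probe set of their own. A member was taken as every probe set whose single gene symbol is that gene, which gave 21 of the 54675 probe sets on the array. One line carried G9a shRNA1, another G9a shRNA2, and the control line carried Luc shRNA, which targets luciferase. All 3 lines were stably transduced and kept in puromycin for 2 weeks, and no label names a change of serine or glycine in the medium. Whether a line was 1 clone or a pool of cells is not given in the sources used here. Each condition was measured on 1 Affymetrix array, so that no replicate error exists for any value given here and precision is bounded by this number.

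These enzymes turn a glycolytic intermediate into serine, split serine into glycine and a folate-bound carbon unit, and pass that unit on to purines, thymidylate and methionine. Parallel sets of enzymes do this in the cytosol and in the mitochondria. Cancer cells often express the pathway at high levels, and ATF4 and MYC are among its known transcriptional activators. G9a has been reported to activate it in cancer cells when serine is depleted. No label names such a depletion here, so these arrays do not repeat the condition of that report. The comparison of each G9a shRNA array with the Luc shRNA array addresses whether the transcripts of these enzymes were lower once G9a was depleted.

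EHMT2, the gene of G9a, was checked first. Its brightest probe set read 182 in the control, 29.7 with G9a shRNA1 and 79.2 with G9a shRNA2, so that 16.3% and 43.4% of the control signal remained. A dimmer EHMT2 probe set retained 86.5% and 59.3%. Of the epithelial markers on a list with EPCAM, KRT8 and ERBB2, 6 of 6 passed the signal filter. Of the markers of other cell types that had a probe set, 1 of 4 for leukocytes, 2 of 4 for fibroblasts and 1 of 4 for endothelium passed it. The leukocyte marker PTPRC read 4.89 or less on all 3 arrays. Since 13192 of all 19775 genes passed this filter, passing it does not by itself mark a cell type. Some markers differed between the arrays. The epithelial list had a median log2 ratio to the control of 0.25 with G9a shRNA1 and a higher one, 0.73, with G9a shRNA2. KRT19, with 1.90 and 1.84, was past 2-fold higher with both. The fibroblast marker DCN read 18.5 in the control, 3.82 with G9a shRNA1 and 11.3 with G9a shRNA2, at low signal. The other fibroblast marker past the filter went the other way. It lay above the control with both shRNAs, by a log2 ratio of at most 0.21. The endothelial marker PECAM1 read 15.4, 29.9 and 28.5, also at low signal. The part of these differences in the members' ratios was not tested. The ratio of 3′ to 5′ β-actin control probe sets, a sign of RNA quality, stood at 3.68 for the control array and at 1.83 and 1.47 for the G9a shRNA1 and G9a shRNA2 arrays, and its part in the ratios that follow was not tested. For GAPDH this ratio ran from 1.12 to 1.15. In bulk RNA, fewer cells that express a gene and less of its RNA per cell cannot be told apart.

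None of the 7 members with a ratio was more than 2-fold lower or higher than the Luc shRNA array with either G9a shRNA at its brightest probe set. A ratio was read only for probe sets with a signal of at least 12.0, the median over the whole table, on at least 1 array. This filter kept 13 of the 21 member probe sets and 7 of the 10 members, and SHMT1, MTHFD1L and ALDH1L2 were left without a ratio of their own. Of these 7 members, 0 were more than 2-fold lower with G9a shRNA1 and 0 with G9a shRNA2, beside 5.1% and 3.58% of the 13192 genes past the filter. Likewise 0 were more than 2-fold higher with either, beside 4.21% and 4.35%. With both shRNAs at once, 1.66% of all genes were lower and 2.57% were higher. All 7 members also passed a stricter filter at the 75th percentile of signal (89.7), where 3.8% of 8348 genes were past 2-fold in either direction with at least 1 shRNA. Against shares this low, a count of 0 of 7 is near the background and is not a result about the members.

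**Figure D1:**
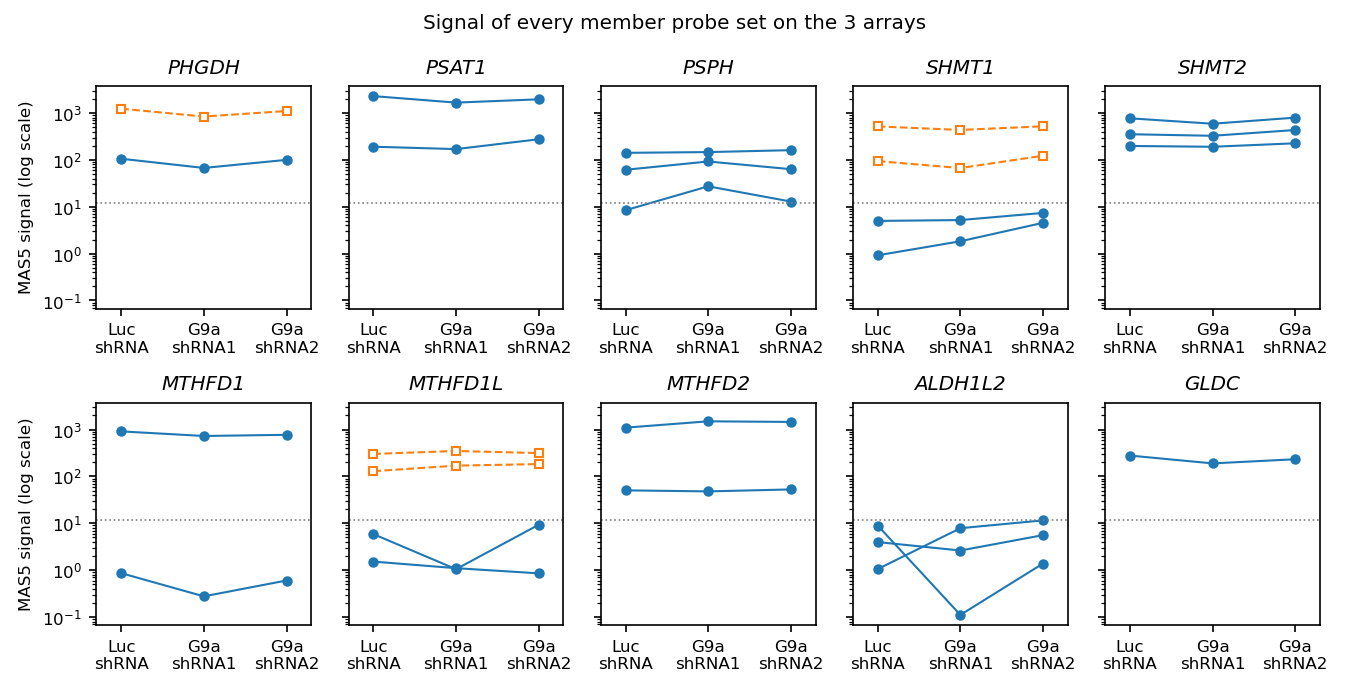
Signal of every probe set of the 10 members on the 3 arrays (y axis, MAS5 signal on a log scale), 1 point per array. Blue circles are probe sets with a single gene symbol and open orange squares are probe sets annotated to several genes; the dotted line is the filter at 12.0, above which no single-symbol probe set of SHMT1, MTHFD1L or ALDH1L2 rises.

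The first steps make serine. PHGDH, which oxidises phosphoglycerate at the entry to the pathway, read 106 on the control array, 67.4 with G9a shRNA1 and 100.3 with G9a shRNA2. Both G9a shRNA arrays lay below the control, by log2 ratios of -0.65 and -0.08. The ratio with G9a shRNA2 depended on the scaling and was -0.19 with the trimmed means set equal and -0.24 after quantile normalization, while that with G9a shRNA1 ran from -0.72 to -0.63. A brighter probe set that is annotated to PHGDH together with MZT2A and MZT2B, and is therefore not assigned to PHGDH, gave -0.56 and -0.16 from a control signal of 1239. PSAT1, the aminotransferase of the next step, read 2300 on the control array, 1671 with G9a shRNA1 and 1964 with G9a shRNA2. Those signals are log2 ratios of -0.46 and -0.23. The other PSAT1 probe set disagreed, since it read 191, 170 and 276, a ratio of -0.17 with G9a shRNA1 but 0.53 with G9a shRNA2.

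PSPH, the phosphatase that releases serine, did not share the lower readings of PHGDH and PSAT1. Its brightest probe set read 142 in the control, 147 with G9a shRNA1 and 162 with G9a shRNA2, giving log2 ratios of 0.05 and 0.19. After median centring of the arrays the ratio with G9a shRNA1 turned to -0.02, and after quantile normalization that with G9a shRNA2 was 0.04. A further PSPH probe set read 61.6, 92.6 and 63.5, with log2 ratios of 0.59 and 0.04. The remaining, dim probe set gave the single ratio past 2-fold among the 13 member probe sets, 1.70 with G9a shRNA1 and 0.62 with G9a shRNA2. It read 8.44 with Luc shRNA, under the filter, and 27.3 and 12.9 with the G9a shRNAs. It therefore passed the filter only through the arrays on which it is high, and once signals below 12.0 were set to that level the ratios were 1.19 and 0.11.

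SHMT2, the mitochondrial hydroxymethyltransferase that splits serine into glycine and a carbon unit on folate, had 3 probe sets past the filter, which agreed in direction. The brightest read 772 in the control, 592 with G9a shRNA1 and 798 with G9a shRNA2, giving log2 ratios of -0.38 and 0.05. The others gave -0.11 and 0.30, and -0.06 and 0.19. In each of the 3 the G9a shRNA1 array was the lowest and the G9a shRNA2 array the highest. Setting the trimmed means of the arrays equal moved the ratio of the brightest probe set with G9a shRNA2 to -0.06, so on which side of the control it lies depends on the scaling.

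SHMT1, the cytosolic counterpart, had no usable probe set of its own. Its 2 single-symbol probe sets read between 0.922 and 7.40 on the 3 arrays, all under the filter. The brighter probe sets at this locus are annotated to SHMT1 and to the microRNA gene MIR6778. One of them read 519, 436 and 522 with Luc shRNA, G9a shRNA1 and G9a shRNA2, giving log2 ratios of -0.25 and 0.01, and the other gave -0.49 and 0.38. Like SHMT2, both lay lowest with G9a shRNA1 and highest with G9a shRNA2 as deposited. For the former, the ratio with G9a shRNA2 moved to -0.10 with the trimmed means set equal and to -0.11 after quantile normalization. On which side of the control it lies therefore depends on the scaling.

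MTHFD1, the cytosolic enzyme that interconverts the oxidation states of the folate-bound unit, read 914 in the control, 730 with G9a shRNA1 and 772 with G9a shRNA2. The log2 ratios were -0.33 and -0.24, both below the control and close to each other. Its other probe set stayed at 0.862 or less.

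MTHFD2, the mitochondrial dehydrogenase and cyclohydrolase of the same steps, had the highest ratios of these 7 members with both shRNAs at the brightest probe sets. It read 1099 in the control, 1500 with G9a shRNA1 and 1455 with G9a shRNA2. Both G9a shRNA arrays lay above the control, by log2 ratios of 0.45 and 0.40, or 136% and 132% of its signal. Over the scalings tried the ratios ran from 0.38 to 0.51 and from 0.30 to 0.40. A dim MTHFD2 probe set did not share this, with 50.4, 47.9 and 52.8 and log2 ratios of -0.07 and 0.07. With each gene read as the average of its probe sets past the filter, PSPH ranked above MTHFD2 with both shRNAs. PSPH then gave 0.78 and 0.28, an average that includes its dim probe set, and MTHFD2 gave 0.19 and 0.24.

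The last mitochondrial step, release of formate, is catalysed by MTHFD1L. Its single-symbol probe sets read between 0.855 and 9.30, under the filter. A pair of brighter probe sets, annotated to MTHFD1L and to the uncharacterised loci LOC101928195 and LOC100996643, were above the control with both shRNAs, at 0.21 and 0.06 for the brighter and 0.39 and 0.51 for the dimmer. The brighter moved to -0.06 with G9a shRNA2 after quantile normalization and to -0.05 with the trimmed means set equal. ALDH1L2, the mitochondrial enzyme that oxidises formyl folate to carbon dioxide, had 3 probe sets with signals from 0.111 to 11.5, the highest of them just under the filter, and these went in different directions from array to array.

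GLDC, the decarboxylase of the glycine cleavage system, has 1 probe set, which read 279 in the control, 190 with G9a shRNA1 and 233 with G9a shRNA2. The log2 ratios were -0.56 and -0.26, so that 68.1% and 83.5% of the control signal remained. Both arrays lay below the control under every scaling tried, at -0.54 to -0.63 and -0.26 to -0.39.

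**Figure D2:**
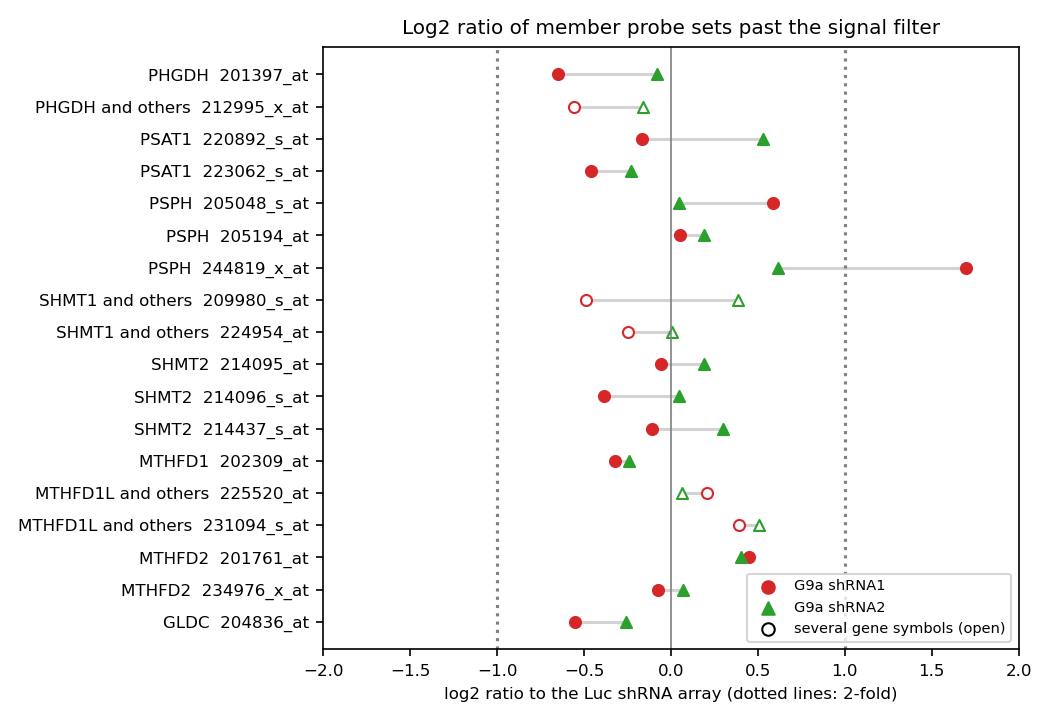
Log2 ratio to the Luc shRNA array (x axis) of the 18 member probe sets past the filter, as circles for G9a shRNA1 and triangles for G9a shRNA2; open symbols are probe sets annotated to several genes. All points but 1 lie inside the dotted 2-fold lines, the exception being the dim PSPH probe set with G9a shRNA1 at 1.70; GLDC, MTHFD1 and PHGDH lie left of 0 with both shRNAs and the bright MTHFD2 probe set lies right of it.

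Across the 7 members with a ratio, 4 were below the control with both shRNAs (PHGDH, PSAT1, MTHFD1 and GLDC), 2 were above it with both (PSPH and MTHFD2) and 1 (SHMT2) was on opposite sides. Among the 8348 genes past the stricter filter, 28.9% were below with both and 46.9% above. The median log2 ratio of the 7 members was -0.38 with G9a shRNA1 and -0.08 with G9a shRNA2, beside 0.00 and 0.13 over all genes past the stricter filter. After quantile normalization the medians were -0.35 and -0.24, beside 0.02 and 0.01, and 5 of 7 members were below with both, beside 37.4% of all genes. With a gene read as the average of those of its probe sets that pass the stricter filter, 3 of 7 were below with both, and the median with G9a shRNA2 was 0.12, beside 0.14 over all genes, so the order of the medians with this shRNA rests on the choice of probe sets. Both ratios of a gene share the Luc shRNA array, so a side shared by both shRNAs is not shown by 2 separate controls.

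Each of the 14 ratios of the 7 members lay inside the central 95% of all genes past the stricter filter, which ran from -0.91 to 0.77 with G9a shRNA1 and from -0.59 to 0.86 with G9a shRNA2. The ratio of PHGDH with G9a shRNA1 had 5.75% of these genes below it, the lowest share of the 14, and the share below GLDC was 7.71%. With G9a shRNA2 the lowest was GLDC, with 11.0%. At the brightest probe sets MTHFD2 was the highest of the 7, with 89.8% and 82.1% of genes below it. As a measure of how far arrays of depleted cells differ, the log2 difference between both G9a shRNA arrays had an SD of 0.25 over the 14682 probe sets past the stricter filter, and a central 95% from -0.68 to 0.35, which includes real differences between the shRNAs. The difference between the shRNAs was -0.57 for PHGDH and 0.04 for MTHFD2. At the chosen probe sets 6 of 7 members read lower with G9a shRNA1 than with G9a shRNA2, beside 74.7% of all genes, and 4 of 7 did after quantile normalization, beside 49.6%.

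**Figure D3:**
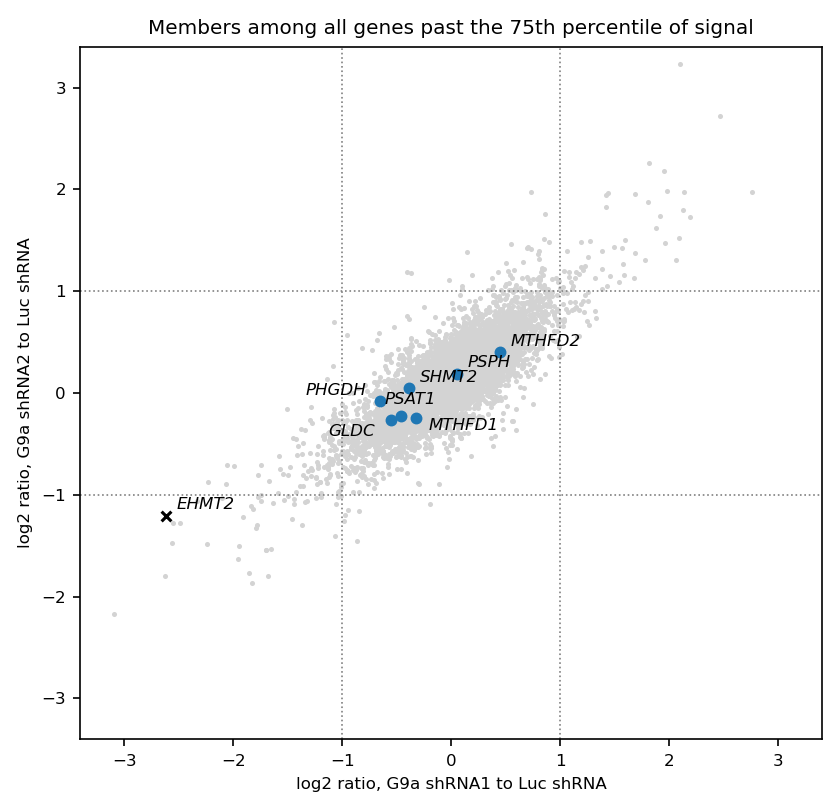
Log2 ratio to the Luc shRNA array with G9a shRNA1 (x axis) and G9a shRNA2 (y axis) of the 8348 genes past the 75th percentile of signal (grey), the 7 members with a ratio (blue) and EHMT2 (cross). The members lie within the body of the grey cloud, inside the dotted 2-fold lines, while EHMT2 lies far to the lower left at -2.62 and -1.20.

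With both G9a shRNA arrays treated as 1 group against the lone control, which is then assumed to vary as they do, limma called 0 of the 13 member probe sets at an adjusted p under 0.05. This fit called 0 probe sets in all (0% of 30446), and 9.57% had an unadjusted p under 0.05, none of them a member. With the variance fitted by signal level, a fit added after the data were seen, limma called 3.87% of probe sets and again 0 of the 13 members. In that fit the bright MTHFD2 probe set had an unadjusted p of 0.013 and an adjusted p of 0.17, and the bright PSAT1 probe set 0.024 and 0.24, so that 2 of 13 were under 0.05 before adjustment, beside 14.6% of all probe sets.

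The promoter sequences of RefSeq (GRCh38.p14), from 250 bases before to 50 after each start, covered 7 of the 10 members. They were searched on both strands for TGATGNAA, the core of the element read by ATF4, and for the E-box CACGTG, which MYC and its partner MAX can bind. Over 35116 promoters, 3.62% held the former and 7.26% the latter, and counted by gene, over all listed starts, 4.46% and 8.77% of 27305 genes did. Of the 7 members covered, MTHFD1 held an E-box and MTHFD1L held both motifs at 3 of its 4 listed starts, which overlap. The windows of PHGDH, PSAT1, SHMT1, MTHFD2 and GLDC held neither, which says only that these letters are not in those windows. At the brightest probe sets MTHFD2 was the member furthest above the control. The bases before the start are shown for the members that hold a motif and for MTHFD2, with motifs in capitals. They lie at chr14:64388103-64388352 (plus strand), chr6:150866236-150866485 (plus strand) and chr2:74198365-74198614 (plus strand).
MTHFD1: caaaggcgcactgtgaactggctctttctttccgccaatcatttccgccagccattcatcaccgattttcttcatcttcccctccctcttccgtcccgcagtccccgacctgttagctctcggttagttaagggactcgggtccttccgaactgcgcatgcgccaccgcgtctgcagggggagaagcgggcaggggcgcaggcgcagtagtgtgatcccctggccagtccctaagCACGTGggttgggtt
MTHFD1L: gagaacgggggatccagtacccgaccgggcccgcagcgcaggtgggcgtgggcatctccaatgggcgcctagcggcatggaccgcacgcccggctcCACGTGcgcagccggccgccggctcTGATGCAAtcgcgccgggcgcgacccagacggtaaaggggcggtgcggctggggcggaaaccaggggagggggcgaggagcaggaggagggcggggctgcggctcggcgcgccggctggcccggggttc
MTHFD2: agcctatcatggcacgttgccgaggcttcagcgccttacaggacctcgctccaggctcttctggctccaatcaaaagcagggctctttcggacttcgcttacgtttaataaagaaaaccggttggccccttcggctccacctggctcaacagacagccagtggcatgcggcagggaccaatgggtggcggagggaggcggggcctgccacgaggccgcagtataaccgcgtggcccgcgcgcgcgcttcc
The E-box begins 15 bases before the start of MTHFD1, whose signal lay below the control with both shRNAs. In MTHFD1L the E-box begins 154 bases and the ATF4 element 129 bases before the start shown. Of the members without a match, MTHFD2 lay above the control with both shRNAs and PHGDH, PSAT1 and GLDC lay below it with both.

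The genes around the pathway were described from lists of known pathway genes, each gene at its brightest probe set. Of 15 other folate enzymes and transporters, 12 had a probe set of their own, all past the filter, and 0 were past 2-fold with both shRNAs, and the median log2 ratio was 0.10 with G9a shRNA1 and 0.09 with G9a shRNA2. MTHFD2L, a mitochondrial relative of MTHFD2, gave 0.49 and 0.23, and SFXN1, which carries serine into mitochondria, gave 0.31 and 0.23, with neither of its 2 other probe sets above the control with both. FTCD, a liver enzyme of histidine breakdown, gave -0.46 and -0.37 and the folate dehydrogenase ALDH1L1 gave 0.16 and 0.29, each at low signal and with none of its other probe sets on the same side with both. The other 3 subunits of the glycine cleavage system had medians of -0.18 and 0.10. The carrier protein GCSH, like GLDC, lay below the control with both shRNAs, at -0.30 and -0.24. DLD, the dehydrogenase that the system shares with other complexes, gave -0.18 and 0.10, and AMT, the aminomethyltransferase, gave 0.72 and 0.46 from a dim control signal of 18.3.

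Of 12 genes of the methionine cycle and of transsulfuration, 9 passed the filter and 0 were past 2-fold with both shRNAs, with medians of -0.08 and 0.05. The enzymes of transsulfuration, which draw serine into cysteine, lay on opposite sides of the control. CBS, which joins serine to homocysteine, read 145 in the control, 64.6 with G9a shRNA1 and 108 with G9a shRNA2, giving log2 ratios of -1.17 and -0.43. CTH, which releases cysteine in the next step, read 293, 497 and 538, log2 ratios of 0.76 and 0.88. MTR, which takes a methyl group from folate to make methionine, and MTRR, which reactivates it, were both below the control, at -0.44 and -0.28 and at -0.69 and -0.56. For MTR and MTRR the other probe set past the filter lay on the same side, for CTH as well, and for CBS 1 of its 2 others did.

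Purine synthesis takes up carbon units made by the members. Of 14 genes of purine and thymidylate synthesis past the filter, 10 were above the control with both shRNAs, beside 44.0% of all genes past the filter, 4 were below, and 0 were past 2-fold. The medians were 0.11 and 0.13, near those over all genes past the filter, 0.00 and 0.12. GART, which uses formyl folate, gave 0.48 and 0.55, with its 7 other probe sets past the filter also above the control with both. PPAT, the amidotransferase that commits to the pathway, gave 0.47 and 0.62, and ATIC, which uses formyl folate in the last steps, gave 0.30 and 0.45. IMPDH2, an enzyme of guanine nucleotide synthesis, gave 0.29 and 0.48. Among 11 transporters and users of serine and glycine past the filter, 0 were past 2-fold with both. The amino acid carrier SLC38A2 gave 0.52 and 0.45, and SPTLC1, a subunit of the enzyme that joins serine to a fatty acid, gave 0.18 and 0.20. PTDSS2, which makes phosphatidylserine, gave -0.35 and -0.18, and GCAT, an enzyme of threonine breakdown to glycine, gave -0.39 and -0.17 at low signal.

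**Figure D4:**
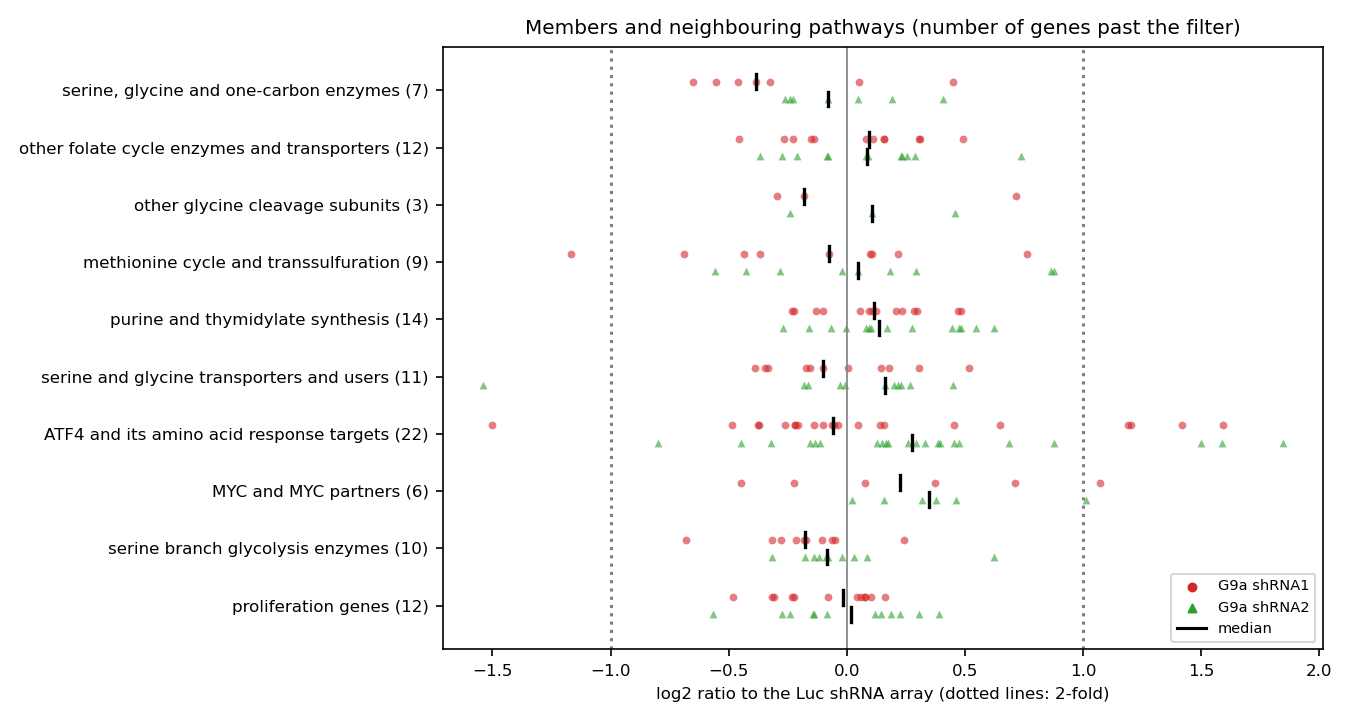
Log2 ratio to the Luc shRNA array (x axis) of the genes past the filter in the members and in 9 neighbouring lists (rows, number of genes in parentheses), as circles for G9a shRNA1 and triangles for G9a shRNA2; black bars are medians. The 7 members have the lowest median of these lists with G9a shRNA1, -0.38, but not with G9a shRNA2, where theirs is -0.08 and that of the glycolysis list -0.09, and the points past 2-fold with both shRNAs lie in the ATF4 list and, just past the line, in the MYC list.

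The known activators of the pathway were read beside it. ATF4, picked with its values known, read 2422 in the control, 2256 with G9a shRNA1 and 2646 with G9a shRNA2, giving log2 ratios of -0.10 and 0.13. Of 22 genes on the list of ATF4 and its amino acid response targets, 3 were past 2-fold higher with both shRNAs and 0 lower, beside 2.57% and 1.66% of all genes, and the medians were -0.06 and 0.28. Those 3 were ATF3, a stress-induced transcription factor, CHAC1, which degrades glutathione, and STC2, a secreted glycoprotein. CHAC1 and STC2 had control signals of 10.8 and 7.53, under the filter, so that they passed it through the G9a shRNA arrays, and STC2 gave 0.54 and 0.92 after the same floor at 12.0. DDIT3, the stress factor CHOP, gave 1.19 and 0.88. Others on the list lay elsewhere, here picked with their values known. DDIT4, a stress-induced inhibitor of mTORC1, gave -1.50 and -0.80. ASNS, asparagine synthetase, gave -0.21 and 0.29, and PYCR1, an enzyme of proline synthesis, gave -0.38 and -0.11.

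MYC read 428 in the control, 701 with G9a shRNA1 and 590 with G9a shRNA2, giving log2 ratios of 0.71 and 0.46, above the control with both. Its partner MAX gave 0.37 and 0.38 and the related MYCL 0.08 and 0.16 at low signal. MXD1, which competes with MYC for MAX, gave 1.07 and 1.01 from a control signal of 14.1 and was no longer past 2-fold with both after median centring. Among 10 glycolysis genes, 7 were below the control with both shRNAs, beside 30.8% of all genes past the filter, and 0 were past 2-fold. The medians were -0.18 and -0.09. The list holds enzymes before the branch point to serine and also PGAM1, ENO1, PKM and LDHA, which act after it. PFKM, a phosphofructokinase, gave -0.68 and -0.32, PFKP, another phosphofructokinase, gave -0.28 and -0.14, GAPDH gave -0.21 and -0.18, and the pyruvate kinase PKM gave 0.24 and 0.62. Of 12 proliferation genes, 6 were above and 6 below with both, with medians of -0.02 and 0.02. The mitotic checkpoint kinase BUB1 gave -0.48 and -0.57, MKI67 gave -0.23 and -0.28, the topoisomerase TOP2A gave -0.22 and -0.24, and MCM2, a subunit of the replicative helicase, gave 0.16 and 0.39.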

How the data were processed

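Total RNA of SKOV3 cells with Luc shRNA, G9a shRNA1 or G9a shRNA2 was hybridised to Affymetrix Human Genome U133 Plus 2.0 arrays, 1 per condition. The authors made probe set intensities with MAS5, as the labels state, and deposited them on a linear scale; settings, version and scaling target are not given in the sources used here, and the 2% trimmed means ran from 105 to 115. All 3 columns were used as deposited, each G9a shRNA array being set against Luc shRNA on the log2 scale. Probe sets whose highest signal reached the median of all values (12.0) were kept, 30446 of 54675. Symbols come from the array annotation, updated through RefSeq identifiers: 41097 probe sets had 1, 1801 several and 11777 none. A gene was read at its brightest single-symbol probe set, and past 2-fold was the rule of size. The members and lists were chosen with earlier results of these data known, so no list is independent evidence.

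Named are all members, EHMT2, and from each list the genes past 2-fold with both shRNAs, filled up to 4 by the smaller of both changes on the same side. Alternatives were other filters, a floor, scalings, thresholds of 1.5-fold and 3-fold, averages over probe sets, either shRNA by itself, and, run in R 4.3.3, limma 3.58.1 with Benjamini-Hochberg adjustment over all kept probe sets, tested on simulated data. Python 3.11.15, numpy 2.4.6, pandas 2.3.3 and matplotlib 3.10.9 were used. The authors' supplementary fold changes were not used.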

Additional observations from a re-analysis of the deposited data

How the results depend on the processing

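Precision is limited by 1 array per condition and by signal over background: both G9a shRNA arrays lay over 2-fold apart at 14.1% of probe sets from the median up to the 75th percentile, and at 0.443% above it. No paired analysis was possible because each condition has 1 array. The count of members past 2-fold with both shRNAs was 0 in each direction and stayed 0 under every alternative run but 1: without a filter 1 member, ALDH1L2, was higher, from signals under the median of all values. The median over members with G9a shRNA1 ran from -0.46 to -0.32 over the alternatives run. With G9a shRNA2 it ran from -0.24 to 0.15 and was above 0 without a filter (0.12) and with averages over all probe sets (0.15). With probe sets of several symbols included, an alternative chosen with the data known, 9 of 10 members had a ratio, and the medians were -0.33 and 0.01. Of 112 recomputed ratios of single members, 3 moved by more than 0.25, all with averages over probe sets: MTHFD2 to 0.19 with G9a shRNA1, PSPH to 0.78 with G9a shRNA1 and PSAT1 to 0.15 with G9a shRNA2. That setting moved the MYC list's median, of the mean of both ratios, from 0.25 to 0.58; the cause was not tested. The ATF4 list had 3 genes past 2-fold higher with both, 1 with the filter at the 75th percentile, and 5 and 0 with thresholds of 1.5-fold and 3-fold. MXD1, the 1 call of the MYC list, was lost under all 3 scalings, the stricter filter, averages over probe sets and the 3-fold threshold. The count of methionine genes higher with both went from 0 to 1 without a filter and at 1.5-fold, that of transporters from 0 to 1 without a filter, that of glycolysis genes from 0 to 1 with averages, and that of ATF4 list genes lower from 0 to 1 at 1.5-fold; with G9a shRNA2 EHMT2 was not past 2-fold lower under averages, nor past the 3-fold threshold. Of all genes past 2-fold with both, 60.8% were higher as deposited and 53.1% after quantile normalization, which moved ratios with G9a shRNA2 by a median of -0.14 past the 75th percentile.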
